A study of Mus musculus with 6 samples.

Results

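The 10 genes described here, Hspa5, Hsp90b1, Hyou1, Calr, Pdia4, Creld2, Sdf2l1, Dnajb9, Herpud1 and Xbp1, encode chaperones and folding enzymes of the endoplasmic reticulum (ER) and the Xbp1 arm of its stress response. They were chosen by name, and all 10 had a row on the array that its annotation assigns to a single gene symbol, among 19938 genes tested. Pdia4 had a pair of such rows, and the brighter over all 6 arrays was used. Total RNA came from mucosa scraped off the jejunum, the middle part of the small bowel; the mice were C57/BL, 8 to 10 weeks old and on regular chow. In 1 group were 3 arrays of ISR2 mice, a transgenic line with overactive SREBP2 in the intestine, and in the other 3 arrays of their wild type littermates. SREBP2 is the transcription factor of cholesterol synthesis, encoded by Srebf2. The sources used here name neither the construct nor the promoter that drives it. No label states that the arrays are of separate mice, and p-values therefore reflect the spread among these 6 samples, which may be partly technical.

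New secretory and membrane proteins enter the ER unfolded. BiP, the product of Hspa5, binds them together with its cofactors, lectin chaperones hold those that carry sugar chains, and disulfide isomerases set their bonds. When unfolded protein builds up, the sensors IRE1, ATF6 and PERK are released. IRE1 splices Xbp1 mRNA into the form that encodes an active transcription factor, cleaved ATF6 enters the nucleus, and PERK slows translation while allowing that of ATF4. ATF6 is cut in the Golgi by the proteases that also release the SREBP proteins. In the intestine this system is known for its role in goblet, Paneth and plasma cells, which secrete heavily, and enterocytes use the same ER to build chylomicrons.

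ATF6 and XBP1 act on chaperone genes through the ER stress response element, a CCAAT box and a CCACG box separated by 9 bases. The promoters below are shown because they hold this element or its short form. The element is known from chaperone genes such as these, so finding it among the 10 is no independent result. The shares over all promoters below are given only to show how rare the letters are. Promoters from RefSeq (GRCm38.p6) matched 9 of the 10 genes; Hyou1 had no entry. In the 250 bases before the annotated start, the letters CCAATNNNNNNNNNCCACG, searched on both strands, occurred in Hspa5, Hsp90b1, Calr and Creld2, that is in 4 of 9, against 0.113% of all 32851 promoters in the table. The short form ATTGGNCCACG occurred in Herpud1, against 0.0304% of all promoters. Each run is printed 5′ to 3′ on the strand of its gene, with the fixed letters of the matches in capitals.
Hspa5, GRCm38.p6, chr2:34771840-34772089, plus strand: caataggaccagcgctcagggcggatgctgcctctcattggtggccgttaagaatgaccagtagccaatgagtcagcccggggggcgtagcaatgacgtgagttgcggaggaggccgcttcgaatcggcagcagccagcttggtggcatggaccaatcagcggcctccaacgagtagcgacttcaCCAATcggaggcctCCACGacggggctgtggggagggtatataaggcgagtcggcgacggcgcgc
Hsp90b1, GRCm38.p6, chr10:86705445-86705694, minus strand: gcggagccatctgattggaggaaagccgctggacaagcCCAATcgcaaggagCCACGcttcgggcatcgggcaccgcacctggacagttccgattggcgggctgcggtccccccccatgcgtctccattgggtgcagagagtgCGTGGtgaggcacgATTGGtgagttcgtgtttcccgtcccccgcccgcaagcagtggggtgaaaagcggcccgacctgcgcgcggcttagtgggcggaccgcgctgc
Calr, GRCm38.p6, chr8:84846932-84847181, minus strand: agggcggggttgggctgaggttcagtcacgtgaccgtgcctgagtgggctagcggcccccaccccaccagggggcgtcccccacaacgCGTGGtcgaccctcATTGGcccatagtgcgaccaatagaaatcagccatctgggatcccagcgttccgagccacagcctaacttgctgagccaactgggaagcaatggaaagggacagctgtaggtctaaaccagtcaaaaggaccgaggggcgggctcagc
Creld2, GRCm38.p6, chr15:88819396-88819645, plus strand: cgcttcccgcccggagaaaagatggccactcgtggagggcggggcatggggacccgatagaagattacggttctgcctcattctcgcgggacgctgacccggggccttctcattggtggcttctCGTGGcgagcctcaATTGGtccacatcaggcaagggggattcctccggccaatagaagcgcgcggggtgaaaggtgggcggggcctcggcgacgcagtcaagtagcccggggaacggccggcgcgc
Herpud1, GRCm38.p6, chr8:94386179-94386428, plus strand: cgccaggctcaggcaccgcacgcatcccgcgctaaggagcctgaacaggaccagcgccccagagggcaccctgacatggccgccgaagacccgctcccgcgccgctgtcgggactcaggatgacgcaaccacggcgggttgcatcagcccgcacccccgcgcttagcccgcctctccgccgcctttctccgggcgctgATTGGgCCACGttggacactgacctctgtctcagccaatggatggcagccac
The match in Hspa5 lay 65 to 47 bases before the start, and that in Herpud1 52 to 42 bases before it. Hsp90b1 held 2 matches, at 212 to 194 bases on the forward strand and at 107 to 89 bases on the reverse strand. Calr and Creld2 each held a match on the reverse strand, at 162 to 144 and at 126 to 108 bases. The XBP1-type letters TGACGTGG were found in 0 of the 9 promoters, against 0.563% of all. Only these exact letters were searched, so promoters with a variant of them were not counted. These matches describe letters in a fixed window and do not show binding.

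Srebf2, the gene that encodes SREBP2, separated the groups as labelled. It stood at 9.04, 9.15 and 9.50 in wild type replicates 1, 2 and 3 and at 11.02, 10.85 and 11.16 in ISR2 replicates 1, 2 and 3, as log2 values from RMA, where a step of 1 is a 2-fold change. Srebf2 rose by 1.78 ± 0.16 (SE, 3 arrays per group, limma adjusted p = 0.000298). With the construct not named, RNA of the transgene and of the mouse's own Srebf2 cannot be told apart here. The medians of the 6 arrays lay between 6.04 and 6.19, and the number of arrays limits the precision. Among markers of the tissue, the mean of 10 enterocyte genes was 13.08 to 13.10 in the wild type arrays and 12.70 to 12.97 in the ISR2 arrays, while that of 7 pancreatic acinar genes was 5.42 to 5.67 and 5.24 to 5.44. RNA of other cells in a scraping counts in these values, and fewer cells of a type and less RNA per cell cannot be told apart.

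No member of the group passed the test between ISR2 and wild type mucosa. Of the 10 genes, 0 rose and 0 fell at an adjusted p of 0.05, while 3.02% of all genes tested did so (1.79% rose and 1.23% fell). At an unadjusted p of 0.05 the count was 1 of 10, that of Sdf2l1, against 13.1% of all genes. The median log2 change of the 10 genes was -0.04, against -0.06 over all genes. In ISR2 mucosa 4 of the 10 genes were higher and 6 lower, near the shares over all genes (37.4% and 62.6%). This balance was not fixed: 6 were higher with each array centred on its median (median change 0.04), and 1 was higher with either wild type replicate 1 or the third ISR2 array left out (median change -0.09). For each of the 10, the 95% interval of the change lay within a 2-fold change in either direction, between -0.65 and 0.79 on the log2 scale. The same was true of 94.5% of all genes, so this bound describes the precision of the arrays and is not particular to the 10. For 2 of the 10 genes, Calr and Sdf2l1, the groups did not overlap, near the 19.8% found over all genes.

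**Figure D1:**
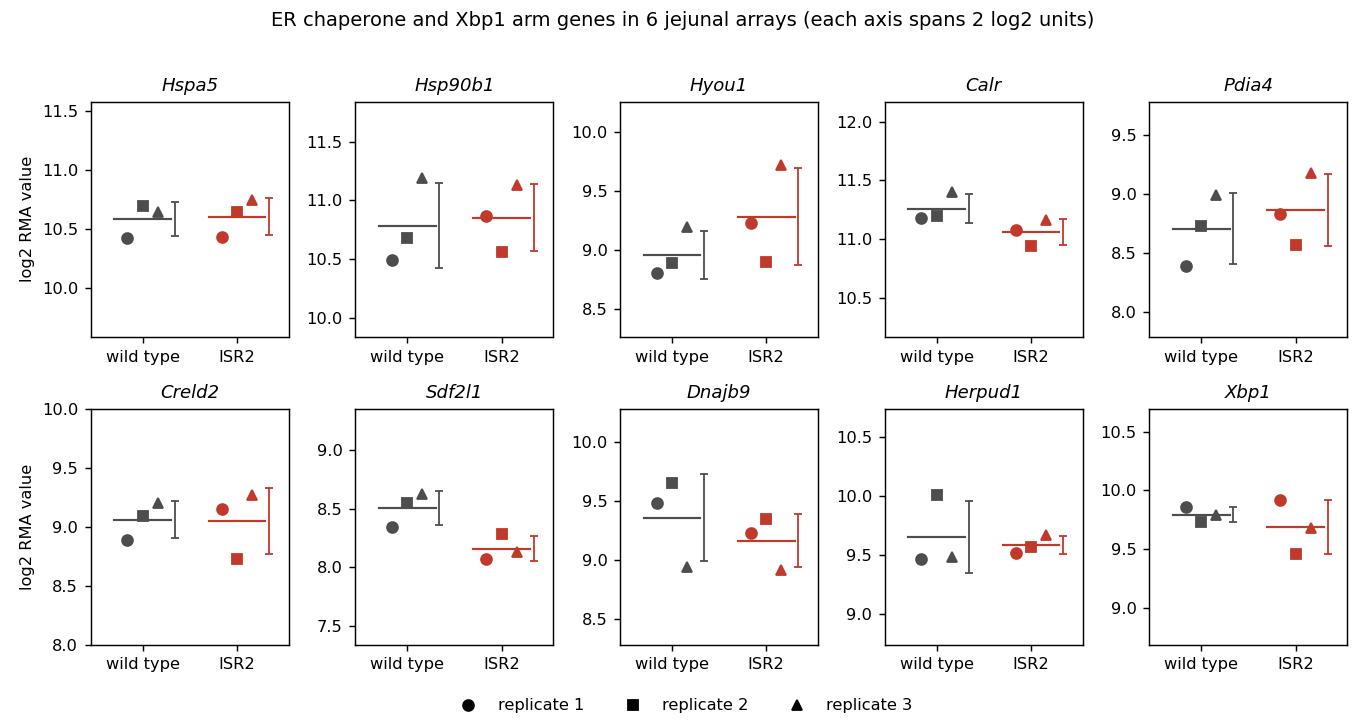
Log2 RMA values (y axis) of each of the 10 genes in 3 wild type arrays (grey) and 3 ISR2 arrays (red); symbols mark the replicate number, horizontal lines the means and bars the SD. The groups overlap for 8 genes; the ISR2 arrays of Calr and Sdf2l1 all lie below the wild type arrays, by less than the test required.

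Hspa5 encodes BiP, the HSP70 of the ER and the usual readout of ER stress. Its log2 values were 10.42, 10.69 and 10.64 in wild type replicates 1, 2 and 3 and 10.43, 10.64 and 10.74 in ISR2 replicates 1, 2 and 3. The groups covered nearly the same range, with replicate 1 the lowest array of both. The change was 0.02 ± 0.14 (SE, 3 arrays per group; limma adjusted p = 0.973), with a 95% interval of -0.29 to 0.34 on the log2 scale. In folds this interval ran from 0.816 to 1.26.

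Hsp90b1 encodes GRP94, the HSP90 of the ER, which folds integrins and Toll-like receptors. It stood at 10.49, 10.68 and 11.19 in wild type and at 10.87, 10.56 and 11.13 in ISR2 replicates 1, 2 and 3. The groups overlapped almost wholly, and replicate 3 was the highest array in each. Between the groups the log2 change was 0.06 ± 0.21 (SE; limma adjusted p = 0.944; 95% interval -0.41 to 0.54). Its direction was not fixed: the change was -0.08 when the first wild type array was left out and -0.07 without ISR2 replicate 3.

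Hyou1, which encodes the large HSP70-related chaperone GRP170 and a nucleotide exchange factor of BiP, had the largest positive change of the 10. Its values were 8.80, 8.89 and 9.19 in wild type and 9.23, 8.90 and 9.72 in ISR2 replicates 1, 2 and 3. ISR2 replicate 2 lay inside the wild type range, and ISR2 replicate 3 exceeded all other arrays. The log2 change was 0.32 ± 0.21 (SE; limma adjusted p = 0.597; 95% interval -0.15 to 0.79), a measured 1.25-fold difference whose interval reached 1.73-fold. It was 0.10 without ISR2 replicate 3 and 0.51 without ISR2 replicate 2.

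Calr encodes calreticulin, the soluble lectin chaperone that also stores calcium. It was measured at 11.18, 11.20 and 11.40 in wild type and at 11.08, 10.94 and 11.16 in ISR2 replicates 1, 2 and 3. The groups did not overlap, but the gap between them was narrower than the spread within either. The measured difference for Calr was -0.20 ± 0.13 on the log2 scale (SE; limma adjusted p = 0.591; 95% interval -0.49 to 0.09).

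The disulfide isomerase gene Pdia4, whose product ERp72 forms and rearranges disulfide bonds, stood at 8.39, 8.73 and 8.99 in wild type and at 8.83, 8.57 and 9.18 in ISR2 replicates 1, 2 and 3. The ISR2 values lay among the wild type values apart from replicate 3. Pdia4 had a log2 change of 0.16 ± 0.20 (SE; limma adjusted p = 0.823; 95% interval -0.30 to 0.61). The second, dimmer Pdia4 row gave 0.19 ± 0.20 (SE; adjusted p = 0.808 with all rows tested). Creld2, which encodes a disulfide isomerase with EGF-like domains, was at 8.89, 9.09 and 9.20 in wild type and at 9.15, 8.73 and 9.27 in ISR2. Its ISR2 arrays enclosed the wild type range on both sides, and the log2 change was -0.01 ± 0.17 (SE; limma adjusted p = 0.989; 95% interval -0.39 to 0.37).

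Sdf2l1, whose product works with BiP and ERdj3 to keep unfolded proteins soluble, came closest to the threshold. It stood at 8.34, 8.55 and 8.62 in wild type and at 8.07, 8.28 and 8.13 in ISR2 replicates 1, 2 and 3. Every ISR2 array was below every wild type array, as for 13.9% of all genes. The log2 change was -0.34 ± 0.13 (SE; 95% interval -0.64 to -0.04), and limma's p was 0.0291 before and 0.30 after adjustment over all genes. Over 16 alternative fits the adjusted p was 0.0617 to 0.576 and the change -0.43 to -0.26, so the value was negative in each and passed in none.

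Dnajb9 encodes ERdj4, a BiP cochaperone that holds IRE1 inactive and is itself a target of spliced XBP1. It was at 9.48, 9.65 and 8.94 in wild type and at 9.23, 9.35 and 8.91 in ISR2 replicates 1, 2 and 3. Replicate 3 was the lowest array in both groups, the reverse of Hsp90b1. The log2 change was -0.20 ± 0.20 (SE; limma adjusted p = 0.767; 95% interval -0.65 to 0.26). It was -0.05 without wild type replicate 2 and -0.40 without wild type replicate 3.

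Herpud1 encodes an ER membrane protein that assembles the HRD1 complex of ER-associated degradation. It was at 9.47, 10.01 and 9.48 in wild type and at 9.52, 9.57 and 9.67 in ISR2. The ISR2 arrays lay close together inside the wild type range, which wild type replicate 2 widened upwards. The log2 change was -0.07 ± 0.17 (SE; limma adjusted p = 0.92; 95% interval -0.44 to 0.31), and 0.11 without wild type replicate 2.

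Xbp1, the transcription factor gene of the IRE1 branch, was at 9.86, 9.73 and 9.79 in wild type and at 9.92, 9.46 and 9.68 in ISR2. The ISR2 arrays spread on both sides of a narrow wild type range. For Xbp1 the log2 change was -0.11 ± 0.15 (SE; limma adjusted p = 0.836; 95% interval -0.44 to 0.22). A summary over the whole transcript does not separate spliced from unspliced Xbp1 mRNA, since splicing removes only a short stretch, so these values give the total transcript and not the activity of IRE1.

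**Figure D2:**
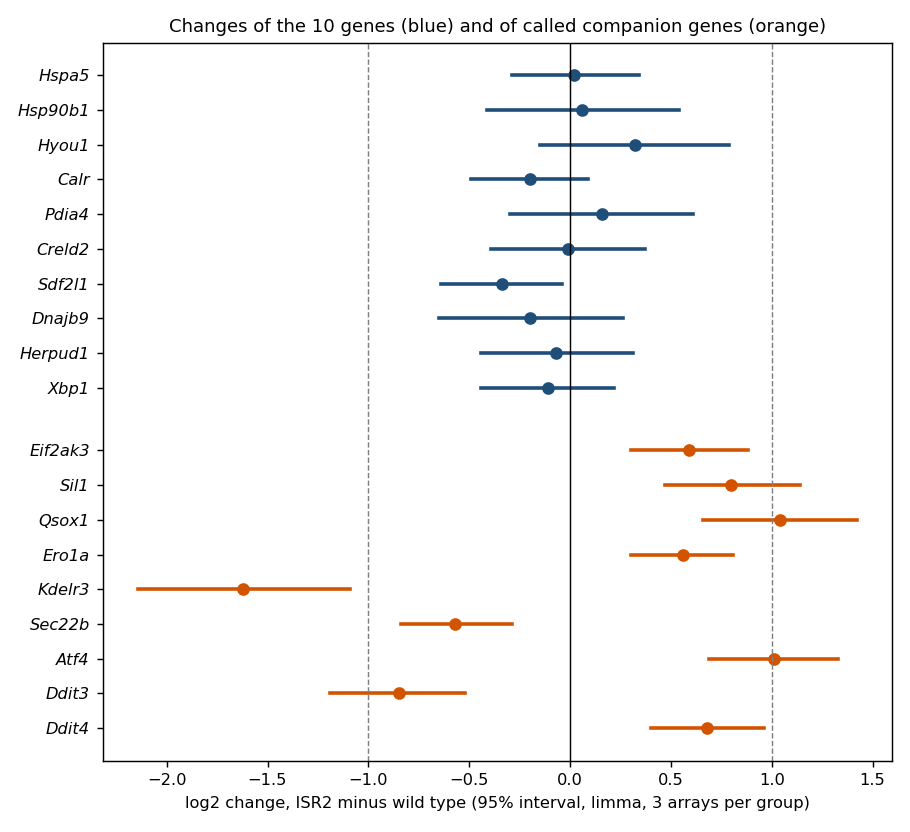
Log2 change of ISR2 minus wild type (x axis) with 95% intervals from limma, 3 arrays per group, for the 10 genes (blue) and for the genes of the companion lists that passed the test (orange); dashed lines mark 2-fold changes. Each blue interval stays inside the dashed lines, from -0.65 for Dnajb9 to 0.79 for Hyou1, and only that of Sdf2l1 leaves out 0.

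For 9 of the 10 genes, all but Sdf2l1, the range within a group was wider than the difference between the group means. Part of the genes varied together. Hsp90b1, Hyou1, Calr, Pdia4 and Creld2 were each highest in replicate 3 of both groups. Such a pattern held for 5 of the 10 genes, or 50%, and for 19.8% of all genes. The pattern was picked out from these same values, so the shares describe it and do not test it. In wild type replicate 3 Hsp90b1 lay 0.41 above its group mean, Pdia4 0.29 and Hyou1 0.23, on the log2 scale. In ISR2 replicate 3 Hyou1 lay 0.43 above its group mean, Pdia4 0.32 and Hsp90b1 0.27. At the other end, wild type replicate 1 was the lowest of its group for 8 of the 10 genes (28.3% of all genes), and ISR2 replicate 2 was the lowest of its group for 6 (41.5% of all genes). Genes other than Hsp90b1, Hyou1, Calr, Pdia4 and Creld2 departed from this in part or wholly. Dnajb9 was lowest in replicate 3 of both groups. Xbp1 was highest in replicate 1 of both, though lowest in ISR2 replicate 2. Hspa5, Sdf2l1 and Herpud1 were lowest in ISR2 replicate 1.

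**Figure D3:**
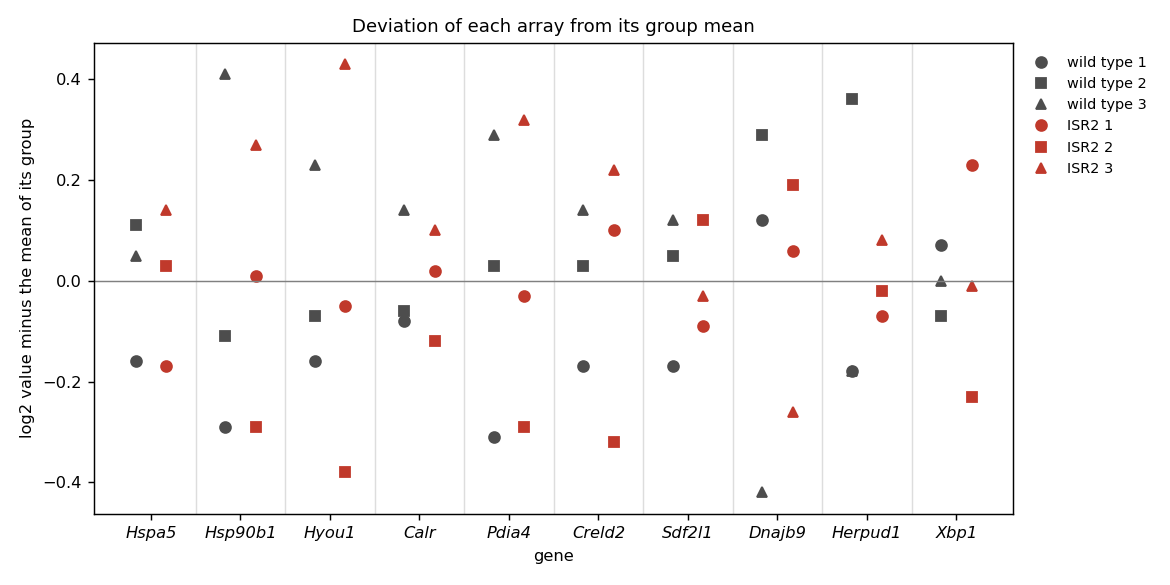
Deviation of each array from the mean of its group (y axis, log2 units) for the 10 genes (x axis); grey symbols are wild type and red symbols ISR2, with the replicate number given by the shape. Triangles, the third replicates, are the highest symbols for Hsp90b1, Hyou1, Calr, Pdia4 and Creld2 and the lowest for Dnajb9.

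Some other lists had the same order of arrays, and some a different order. The mean of 7 mitochondrial chaperone genes was 8.73, 8.97 and 9.39 in wild type and 9.25, 8.86 and 9.45 in ISR2 replicates 1, 2 and 3, and the mean of 5 Paneth cell markers was 10.67, 11.14 and 11.35 and 10.73, 9.84 and 10.94. Both means had replicate 3 highest in each group, wild type replicate 1 lowest and ISR2 replicate 2 lowest, as Hsp90b1, Hyou1, Calr, Pdia4 and Creld2 had. So had the means of the disulfide isomerase, lectin chaperone and translocon lists described below. Single genes could differ from the mean of their list. The mitochondrial Hspe1 was lowest in replicate 3 of both groups, and the Paneth cell marker Mmp7 was highest in wild type replicate 2 and ISR2 replicate 1. Lyz1, the lysozyme gene that defines Paneth cells, was at 12.58, 13.04 and 13.21 in wild type and at 12.49, 11.59 and 12.73 in ISR2. Ang4, an antimicrobial ribonuclease of these cells, was at 9.40, 9.98 and 10.09 and at 9.32, 8.40 and 9.46. The T cell and stroma lists ran differently. The mean of 8 T cell markers was lowest in replicate 3 of both groups (8.30, 8.17 and 7.70 in wild type and 7.13, 7.32 and 6.64 in ISR2 replicates 1, 2 and 3). The mean of 9 smooth muscle and stroma markers was 7.52, 9.83 and 7.97 in wild type and 8.10, 9.23 and 8.12 in ISR2, so that both second replicates stood apart from the other arrays. Acta2, the smooth muscle actin gene, was at 8.16, 12.14 and 9.38 in wild type and at 9.36, 11.38 and 9.33 in ISR2. The mean of 7 goblet cell markers ranged from 10.88 to 11.06 in wild type and from 10.58 to 10.89 in ISR2, and that of 9 plasma and B cell markers from 6.70 to 6.91 and from 6.19 to 6.83. The part of these cells in the values of the 10 genes was not tested. None of the Paneth cell or plasma and B cell markers passed the test between the groups. In ISR2 5 of 5 and 9 of 9 were lower, with medians of -0.55 and -0.35. Of all genes tested 62.6% were lower, with a median of -0.06. Without ISR2 replicate 2 the medians were -0.27 and -0.12, and 4 of 5 Paneth cell markers were lower. Of the plasma and B cell markers 8 were lower with median centring and 6 with array weights (median -0.11). Of 7 goblet cell markers, 7 were lower (median -0.20), against the same 62.6% of all genes. The count was 4 without ISR2 replicate 2 or with array weights, 5 with median centring and 6 with renewed quantile normalization. Of the 7, 1 passed: Spink4 fell by 0.62 (SE 0.13, limma adjusted p = 0.0445). The Spink4 call was lost in each of the 6 fits without 1 array (adjusted p up to 0.16). It was also lost after median centring, after renewed quantile normalization and with all rows tested. In the list of T cell markers 5 of 8 fell (62.5%, against 1.23% of all genes tested) and 0 rose. The falls were led by Cd7 and Gzmb (-1.41 ± 0.18 and -1.43 ± 0.20, SE). The count was 3 when any of wild type replicates 1 and 2 and the third ISR2 array was left out, and 3 with all rows tested. Of 10 enterocyte markers 8 were lower in ISR2 (6 with median centring), against 62.6% of all genes, with a median of -0.26. Fabp1 and Sis were higher, by 0.14 each. For 6 of the 10 every ISR2 array was below every wild type array, against 13.9% of all genes. In the main fit 1 passed: Alpi, intestinal alkaline phosphatase, fell by 0.77 (SE 0.16; limma adjusted p = 0.0417). The Alpi call held only without ISR2 replicate 2 among the 6 fits without 1 array (adjusted p up to 0.194). It was lost after median centring and with all rows tested. Of the enterocyte markers 3 fell without ISR2 replicate 2 and 4 with array weights. No enteroendocrine, acinar or stroma marker passed, of 8, 7 and 9 measured. The stroma median was 0.13 but depended on the array left out, from -0.60 without the first wild type array to 0.70 without the second, and -0.55 without ISR2 replicate 2.

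Around the 10 genes, 7 lists of the same pathway held 101 further genes, of which 97 were measured. Of these, 4 rose, 2 fell and 91 did not pass, and their median log2 change was -0.09. The 6 calls are 6.19% of the 97, against 3.02% of all genes tested. They were few enough to depend on single arrays: between 0 and 3 rose and between 1 and 2 fell when 1 array was left out, with 0 rising without ISR2 replicate 1.

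**Figure D4:**
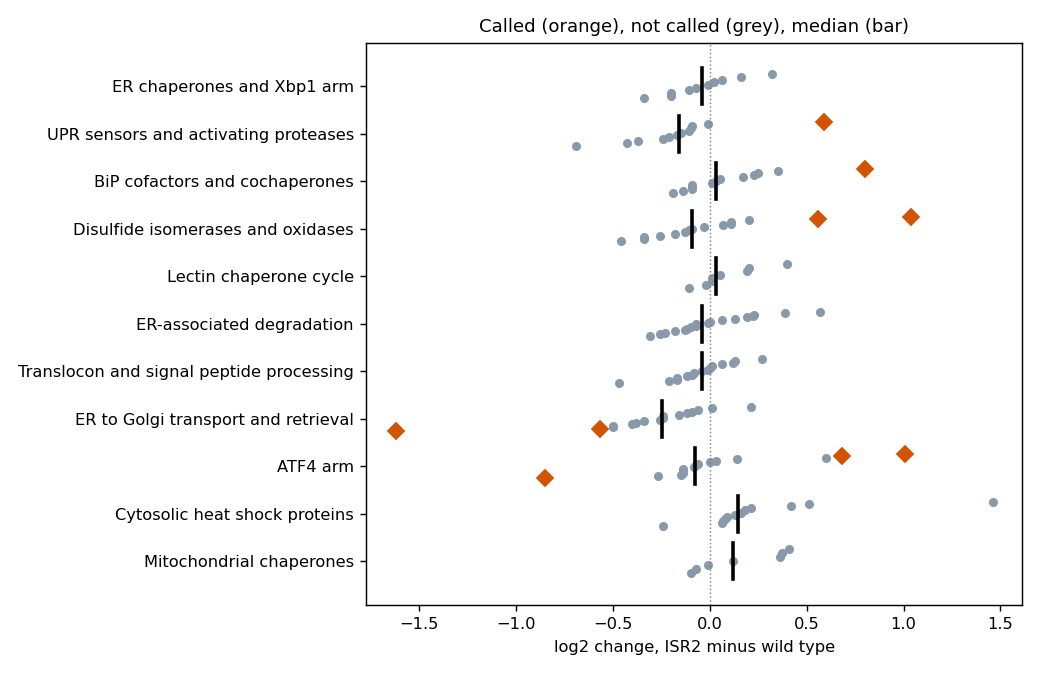
Log2 change of ISR2 minus wild type (x axis) for every measured gene of the 10-gene group, of 7 secretory pathway lists and of the lists of the ATF4 arm, cytosolic heat shock proteins and mitochondrial chaperones; diamonds passed the test and bars are medians. The medians lie between -0.25 for transport from ER to Golgi and 0.14 for cytosolic heat shock proteins.

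Among 12 measured sensors and activating proteases, 1 rose and 0 fell. This 1 gene is 8.33% of the list, against 3.02% of all genes tested that passed. In ISR2 11 of the 12 were lower, with a median of -0.16, against 62.6% of all genes. Without ISR2 replicate 2, 7 were lower and the median was -0.05. The gene that rose was Eif2ak3, which encodes PERK. Eif2ak3 stood at 7.69, 7.65 and 7.82 in wild type and at 8.42, 8.17 and 8.33 in ISR2, and rose by 0.59 ± 0.13 (SE; limma adjusted p = 0.044), or 1.50-fold. The call held without ISR2 replicate 2 and was lost without any of the other arrays and with all rows tested (adjusted p up to 0.199). Ern1, which encodes IRE1, had a change of -0.24 ± 0.19 (SE; adjusted p = 0.684), Atf6 -0.09 ± 0.14 (adjusted p = 0.857) and Mbtps1, the site-1 protease that cuts both ATF6 and the SREBP proteins, -0.11 ± 0.20 (adjusted p = 0.875). These 3 were named for their role in the pathway after their values were seen. Creb3l2, an ATF6-related factor of secretory cells, was at 9.78, 9.79 and 9.24 in wild type and at 8.84, 9.01 and 8.88 in ISR2, without overlap, and did not pass (-0.69 ± 0.17, SE; limma adjusted p = 0.0732). Array weights brought it past the threshold, and so did leaving out wild type replicate 3 (adjusted p = 0.0159). Creb3 and Bloc1s1, whose mRNA is a substrate of IRE1, had changes of -0.37 ± 0.12 and -0.43 ± 0.19 (SE) and did not pass.

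Of 13 cofactors of BiP, 1 rose and 0 fell, so that 7.69% passed, a share resting on 1 gene, against 3.02% of all genes tested. Sil1, a nucleotide exchange factor that frees BiP from its client, stood at 7.85, 8.01 and 8.15 in wild type and at 8.74, 8.64 and 9.04 in ISR2. It rose 1.75-fold, by 0.80 ± 0.15 on the log2 scale (SE; limma adjusted p = 0.0219), with the groups well apart. Of the 6 fits without 1 array, the call held in those without wild type replicate 3 or the second ISR2 array and was lost in the other 4 (adjusted p up to 0.115); it was also lost with all rows tested. Hyou1, which acts on BiP at the same step, had a change of 0.32 ± 0.21 (SE) and did not pass. Whether the changes of Sil1 and Hyou1 differed was not tested. The cochaperones Dnajc1 (0.35 ± 0.12, SE) and Dnajc3 (0.25 ± 0.13), and the stress-induced secreted factor Manf (0.23 ± 0.12), had positive changes that did not pass (adjusted p = 0.246, 0.495 and 0.494).

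Of 15 disulfide isomerases and oxidases, 2 rose and 0 fell, so that 13.3% passed, against 3.02% of all genes tested. Qsox1, a sulfhydryl oxidase that works in the Golgi and outside the cell, stood at 7.38, 7.73 and 7.99 in wild type and at 8.72, 8.85 and 8.64 in ISR2. It rose 2.05-fold, by 1.04 ± 0.17 on the log2 scale (SE; limma adjusted p = 0.0102), and its call was lost only without ISR2 replicate 1 (adjusted p = 0.0575) among the 6 fits without 1 array. Ero1a, the oxidase that regenerates disulfide isomerases, showed little spread: 9.02, 9.05 and 9.04 in wild type and 9.60, 9.58 and 9.60 in ISR2. It rose 1.47-fold, by 0.56 ± 0.11 (SE; limma adjusted p = 0.0328). The change was 0.55 to 0.56 without any 1 array, but the adjusted p was then 0.0535 to 0.144, so the call was lost in each of these fits as well as with all rows tested. Its paralog Ero1b was at 7.01, 6.91 and 7.07 in wild type and at 6.52, 6.63 and 6.81 in ISR2, a change of -0.34 ± 0.13 (SE; limma adjusted p = 0.284). Txndc12, a thioredoxin-like ER protein, had a change of -0.46 ± 0.12 (adjusted p = 0.10).

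Of 8 genes of the lectin chaperone cycle, 0 passed. Canx, the membrane-bound partner of calreticulin, stood at 11.37, 11.68 and 12.04 in wild type and at 12.02, 11.98 and 12.29 in ISR2, a change of 0.40 ± 0.18 (SE; limma adjusted p = 0.406) opposite in sign to that of Calr. The groups overlapped, and replicate 3 was again the highest of each. Prkcsh, the beta subunit of glucosidase II, Uggt1, which marks unfolded glycoproteins for another round, and Clgn, the calnexin of germ cells, had changes of 0.19 ± 0.16, 0.20 ± 0.20 and -0.11 ± 0.16 (SE).

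Of 18 genes of ER-associated degradation, 0 passed. Selenok, a selenoprotein of the degradation complex, lay without overlap at 6.56, 6.52 and 6.73 in wild type and at 7.11, 7.30 and 7.10 in ISR2, and just missed the threshold (0.57 ± 0.13, SE; limma adjusted p = 0.0532); it passed after median centring, with array weights and with dim genes left out (adjusted p down to 0.0166). Derl1, a channel component, and Syvn1, which encodes the ligase HRD1 that Herpud1 helps to assemble, had changes of -0.31 ± 0.11 and -0.26 ± 0.12 (SE; adjusted p = 0.273 and 0.408). Vcp, the ATPase that pulls proteins out of the membrane, had a change of 0.39 ± 0.20 (adjusted p = 0.464). Among 15 translocon and signal peptide genes 0 passed; the smallest p was that of the signal peptidase subunit Spcs2 (-0.47 ± 0.17, SE; adjusted p = 0.251).

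Transport between ER and Golgi held the 2 falls. They were 12.5% of the measured list, while 1.23% of all genes tested fell. Kdelr3 encodes a receptor that returns ER chaperones bearing a KDEL-type tail from the Golgi. It stood at 7.75, 7.54 and 8.49 in wild type and at 6.49, 6.12 and 6.32 in ISR2, a gap of more than 1 log2 unit between the nearest arrays. Kdelr3 was 3.07-fold lower in ISR2 mucosa (-1.62 ± 0.23, SE; limma adjusted p = 0.00525), and the call held in all 6 fits without 1 array (-1.81 to -1.34, adjusted p up to 0.0247). The related receptor gene Kdelr1 was brighter, with means of 9.99 in wild type and 9.92 in ISR2. Its change was -0.06 ± 0.15 (SE, limma adjusted p = 0.912), and Kdelr2 was not analysed. Sec22b, a SNARE protein of this transport step, fell by 0.57 (SE 0.12; limma adjusted p = 0.0429), from 9.73, 9.57 and 9.76 to 9.16, 9.04 and 9.17. Its call was lost in each fit without 1 array (adjusted p up to 0.185), after median centring and with all rows tested. Of the 16 measured genes 14 were lower in ISR2 (13 with median centring), against 62.6% of all genes, with a median of -0.25. The coat subunits Sec13 (-0.50 ± 0.14, SE) and Sec24d (-0.38 ± 0.13) lay without overlap and did not pass (adjusted p = 0.135 and 0.25).

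The ATF4 arm, which PERK feeds, held changes in both directions: of 16 measured genes 2 rose and 1 fell. These calls were 18.8% of the list, against 3.02% of all genes tested. Atf4 stood at 8.05, 7.92 and 8.14 in wild type and at 9.25, 8.86 and 9.03 in ISR2. It rose 2.02-fold (1.01 ± 0.14, SE; limma adjusted p = 0.00441), and its call held in all 6 fits without 1 array (adjusted p up to 0.029). Ddit3, which encodes CHOP, the factor of prolonged ER stress and an ATF4 target, went the other way. It stood at 8.16, 8.43 and 8.12 in wild type and at 7.46, 7.53 and 7.16 in ISR2 and fell by 0.85 (SE 0.15; limma adjusted p = 0.0156). That call, too, held in the fits without wild type replicate 3 or the second ISR2 array and was lost in the other 4 and with all rows tested (adjusted p up to 0.0676). Ddit4, an inhibitor of mTORC1, rose 1.60-fold (0.68 ± 0.13, SE; limma adjusted p = 0.0202), which among these fits held only without ISR2 replicate 2 and was lost with all rows tested (adjusted p up to 0.102). Asns, the asparagine synthetase gene, had a change of 0.60 ± 0.23 with overlapping groups (SE; adjusted p = 0.309). Whether the change of Atf4 differed from that of any of the 10 genes was not tested.

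**Figure D5:**
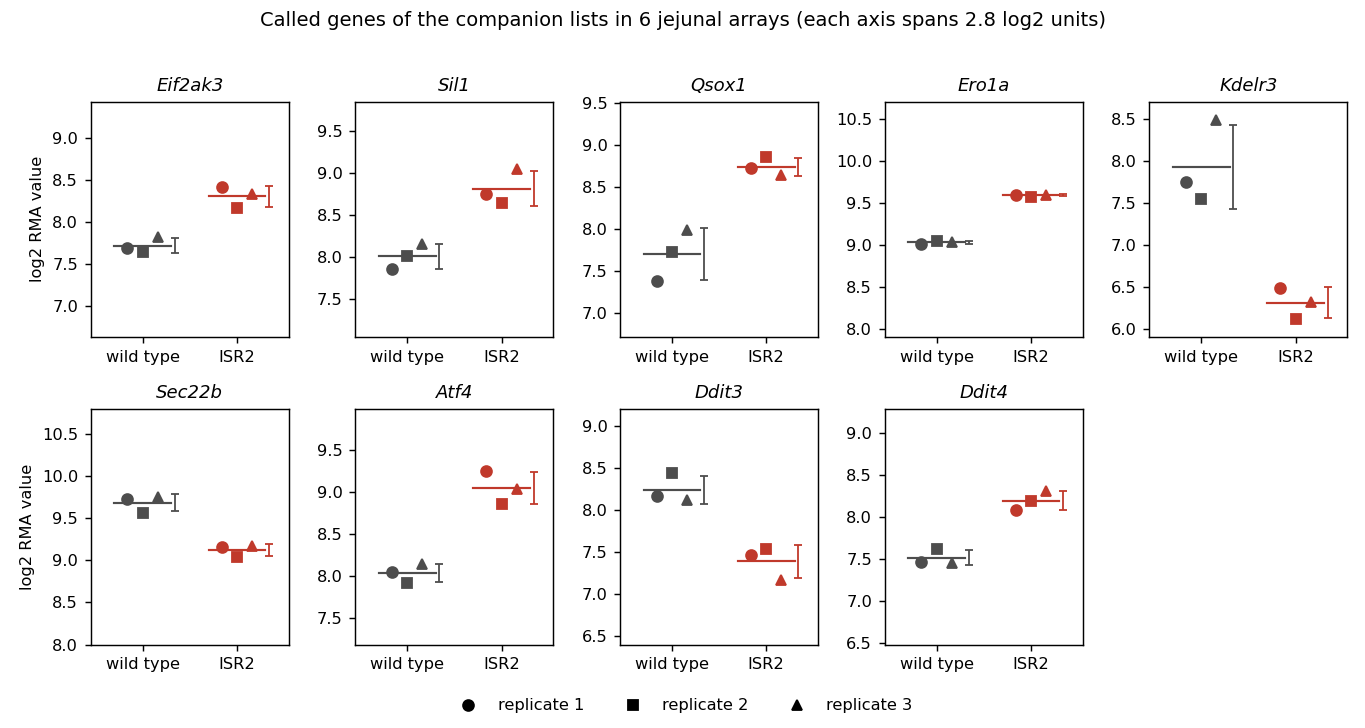
Log2 RMA values (y axis) of the 9 genes of the secretory pathway lists and the ATF4 arm that passed the test, in 3 wild type arrays (grey) and 3 ISR2 arrays (red); symbols mark the replicate number, lines the means and bars the SD. In each panel the groups do not overlap; Kdelr3, Sec22b and Ddit3 are lower in ISR2 and the other 6 higher.

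Chaperones of other compartments gave no calls. Of 12 cytosolic heat shock genes 0 passed, and 11 were higher in ISR2, or 8 without either wild type replicate 1 or the third ISR2 array; 37.4% of all genes were higher. Hspa1a, the stress-inducible HSP70 of the cytosol, had the largest measured change in these lists of chaperones, from 7.16, 7.71 and 6.48 in wild type to 8.03, 9.10 and 8.61 in ISR2, without overlap. It missed the threshold (1.46 ± 0.33, SE; limma adjusted p = 0.0558) and passed without wild type replicate 2, after median centring and with dim genes left out (adjusted p = 0.0308 without that array). Hspa1a has the near-identical copy Hspa1b, and their signals cannot be told apart with certainty. Hspa8, the constitutive HSP70, had a change of 0.18 ± 0.14, Hspa4l 0.42 ± 0.15 and Hsph1 0.51 ± 0.27 (SE), none of which passed. Of 7 mitochondrial chaperone and protease genes 0 passed. The protease gene Lonp1 and the HSP70 gene Hspa9 had changes of 0.41 ± 0.30 and 0.36 ± 0.27 (SE; adjusted p = 0.645 and 0.656). Hspd1, which encodes HSP60, ranged from 9.18 to 10.50 in wild type and from 9.58 to 10.81 in ISR2 (0.37 ± 0.36, SE; adjusted p = 0.753).

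The genes that share the ER stress response element in their promoters gave 1 call. Besides the 4 members printed above, 31 genes in the promoter table held it, of which 16 were tested. Of these, 1 rose, 0 fell, 8 were higher and 8 lower, and the median log2 change was -0.05. Over all genes tested 1.79% rose, 1.23% fell and 37.4% were higher, with a median of -0.06. The gene that rose was Acacb, an acetyl-CoA carboxylase, by 1.04 ± 0.15 on the log2 scale (SE; limma adjusted p = 0.0057), and passed in all 6 fits without 1 array (adjusted p up to 0.0364). Those in the secretory pathway lists were Pdia6 (0.11), Dnajc3 (0.25), Canx (0.40), Syvn1 (-0.26), Ero1b (-0.34) and Derl3 (0.00), given as log2 changes, none of which passed. Outside the lists, Alg12, a mannosyltransferase of the ER, and Calr4, a calreticulin relative, had changes of -0.10 and 0.16 and did not pass; both were named after their values were seen.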

How the data were processed

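Each sample was 1 Affymetrix array of biotin-labelled total RNA, per the labels' protocols. The authors deposited log2 expression values that are RMA output, per the submitters' processing notes; values from 1.44 to 14.8 bear out the log2 scale. RMA brings the distributions of the arrays close together, though the medians of the deposited values still differed (6.04 to 6.19). Changes are therefore only roughly relative to the bulk of genes, whose median change was -0.06. Background can compress changes of dim genes. The table held 35556 rows, of which 21789 had 1 gene symbol in the array's annotation; 999 genes had several rows, and the brightest on average was kept. All 19938 genes entered 1 limma 3.58.1 model (lmFit, eBayes; R 4.3.3), ISR2 minus wild type, without covariates or intensity filter. P-values are two-sided and adjusted by Benjamini-Hochberg over all genes (threshold 0.05). The fit was tested on simulated data. Lists are described by counts, and listed genes without a row were not analysed here. The members, lists, tests and naming rule (all members, up to 4 genes with the smallest p in each pathway list, and the first gene and up to 2 with the smallest p in each marker list) were chosen with earlier results of these data known. Alternatives were an intensity trend, the robust option, array weights, median centring, renewed quantile normalization, leaving out dim genes, testing all rows, averaging a gene's rows, a replicate block, a threshold of 0.10 and arrays left out. Promoters and motifs were handled in Python 3.11.15, and figures were drawn with matplotlib 3.10.9.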

Additional observations from a re-analysis of the deposited data

How the results depend on the processing

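In all 17 alternatives, 0 of the 10 genes rose and 0 fell, and their median log2 change, from -0.09 to 0.04, moved by less than the spread between wild type arrays. The single-gene directions that turned were those of changes near 0, and none passed. With arrays left out, Hspa5 ranged from -0.06 to 0.11, Hsp90b1 from -0.08 to 0.41, Creld2 from -0.12 to 0.22, Herpud1 from -0.16 to 0.11 and Xbp1 from -0.23 to 0.01. With array weights Hspa5 was at -0.10, Creld2 at 0.07 and Xbp1 at 0.06, and with median centring Creld2 was at 0.07 and Herpud1 at 0.01. Of the secretory pathway genes, 0 to 3 rose and 1 to 2 fell with 1 array left out. With all rows tested 1 rose and 1 fell, with median centring 1 fell and with array weights 5 fell. When the third wild type and the second ISR2 array were both left out, 4 fell. With the replicate number as a block, 4 secretory pathway genes rose and 3 fell, and 778 genes were called in all against 602. Deviations from group means correlated at -0.02, 0.32 and 0.54 (across genes) for replicate numbers 1, 2 and 3; the arrays numbered 2 and those numbered 3 were each other's best match, and those numbered 1 were not. What the numbers mark is not stated, so the block was not used. Under it Hspa1a and Creb3l2 also passed, Spink4 did not, and 7 of 8 T cell markers fell. With array weights 1268 genes were called in all, and with all rows tested 340. The causes were not tested. The number of arrays limits the precision, and the printed intervals give the changes these data leave possible.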
